A study of Mus musculus with 10 samples.

Results

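Simple epithelial keratins and desmosome components were examined as a set of 9 genes, chosen by symbol from the 24421 genes listed for mouse embryos at the 8-cell stage: the keratins Krt7, Krt8, Krt18 and Krt19, the plaque proteins Dsp, Jup and Pkp2, and the desmosomal cadherins Dsc2 and Dsg2. All 9 symbols were found. The values come from total RNA sequencing of 10 libraries, 2 in each of 5 groups, all of BDF1 genotype. The groups were siKlf5 (Klf5 knockdown), siTfap2c (Tfap2c knockdown), Arpc1bE_CdxE1_KO and CdxE2_KO (knockouts of Tfap2c motifs in the genome) and Ctrl (control). Klf5 is a Krüppel-like zinc finger factor and Tfap2c a factor of the AP-2 family. The labels give the Ctrl embryos no further description, so what the controls received, and where the motifs lie, was not known here. Nor do they say whether the libraries of a group come from separate pools of embryos, so the spread between 2 libraries may be technical.

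Keratins are intermediate filament proteins that build filaments only as pairs of a type II and a type I chain, and in simple epithelia the usual pair is Krt8 (type II) with Krt18 (type I), with Krt7 and Krt19 as further partners. Desmosomes anchor these filaments at cell contacts: the cadherins Dsc2 and Dsg2 span the membrane, plakoglobin (Jup) and plakophilin 2 (Pkp2) bind their tails, and desmoplakin (Dsp) links the plaque to the filaments. In the mouse embryo the Krt8 and Krt18 filaments and the desmosomes are known as features of the trophectoderm, the outer epithelium of the blastocyst, which forms after the 8-cell stage.

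The deposited values are log2(abundance + 1). The kind of abundance is not named, so levels are compared between groups for a gene and not between genes. The linear abundances of a library summed to 388454 to 395401 units in siKlf5, siTfap2c and Ctrl and to 478651 to 498621 in the 4 motif knockout libraries, and no depth could be given. All 10 listed markers of the 8-cell embryo reached 1 linear unit in at least 1 library. Of 15 markers of cumulus and granulosa cells, 2 reached 1 linear unit in any library: Amhr2 in all 10 and Star in 8. Fshr, Inha and Nr5a1 were listed at 0 in all 10. Klf5 stood at 4.36 and 4.17 log2 units in siKlf5 and at 5.32 and 5.45 in siTfap2c, against 7.20 and 7.13 in Ctrl. Tfap2c stood at 3.94 and 4.09 in siTfap2c and at 6.51 and 6.57 in siKlf5, against 6.61 and 6.61 in Ctrl. Cdx2 stood at 0.77 and 1.53 in Arpc1bE_CdxE1_KO and at 0.82 and 0.93 in CdxE2_KO, against 2.35 and 2.48 in Ctrl. Arpc1b stood at 3.27 and 3.30 in Arpc1bE_CdxE1_KO, against 4.71 and 4.48 in Ctrl. Low values of these genes were not limited to the motif knockouts. Cdx2 averaged 1.19 log2 units in siKlf5 and 0.40 in siTfap2c, against 2.41 in Ctrl. Arpc1b averaged 4.25 in siKlf5, 1.25 in siTfap2c and 4.75 in CdxE2_KO, against 4.59 in Ctrl. Klf5 and Tfap2c were thus low in their own knockdowns, and Klf5 was lower than in Ctrl in siTfap2c too.

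Krt8 fell in siKlf5 and was higher in siTfap2c than in siKlf5, Krt18 fell in both knockdowns, Dsp rose in siTfap2c and Jup fell there. The sequences before the starts of Krt8, Krt18 and Dsp are shown because Klf5 and Tfap2c are DNA-binding factors and the groups differ in them. Each stretch is the 250 bases before the RefSeq start on GRCm38.p6 (the assembly of mm10), in the gene's own direction: Krt8 at chr15:102004343-102004592 on the minus strand, Krt18 at chr15:102027966-102028215 on the plus strand and Dsp at chr13:38151044-38151293 on the plus strand. Capitals mark matches on either strand to GCCNNNGGC, an AP-2 motif, or to CCNCNCCC, a motif of Krüppel-like factors.
Krt8: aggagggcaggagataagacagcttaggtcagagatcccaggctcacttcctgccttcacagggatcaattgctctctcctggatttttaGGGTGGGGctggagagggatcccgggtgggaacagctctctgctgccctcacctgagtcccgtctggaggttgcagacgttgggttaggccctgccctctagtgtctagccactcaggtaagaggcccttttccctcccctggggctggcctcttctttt
Krt18: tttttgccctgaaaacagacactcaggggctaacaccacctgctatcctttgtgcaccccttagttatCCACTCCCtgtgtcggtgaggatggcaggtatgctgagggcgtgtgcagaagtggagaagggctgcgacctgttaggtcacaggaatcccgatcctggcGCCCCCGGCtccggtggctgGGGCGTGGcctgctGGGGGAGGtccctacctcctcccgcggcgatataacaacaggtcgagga
Dsp: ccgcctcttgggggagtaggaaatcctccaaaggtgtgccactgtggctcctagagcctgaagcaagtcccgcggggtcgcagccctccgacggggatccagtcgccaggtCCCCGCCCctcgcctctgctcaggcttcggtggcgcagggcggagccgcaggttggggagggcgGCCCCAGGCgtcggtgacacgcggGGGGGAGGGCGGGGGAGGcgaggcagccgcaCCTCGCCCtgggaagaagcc

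The Krt8 stretch held 0 matches to the AP-2 letters and 1 to the Krüppel-like letters, GGGTGGGG, which begins 160 bases before the start. The Krt18 stretch held 1 AP-2 match, GCCCCCGGC, 83 bases before the start, and 3 Krüppel-like matches at 182, 63 and 49 bases. In the Dsp stretch there were 1 AP-2 match, GCCCCAGGC, at 75 bases and 5 Krüppel-like matches, of which the one at 45 bases overlaps those at 51 and 41. Among all 32851 RefSeq windows of the same length 13.7% hold the AP-2 letters and 45.9% the Krüppel-like letters, so a match to the second is common. RefSeq windows were found for 5 of the 9 genes (Krt7, Krt8, Krt18, Dsp and Jup). The Jup window held 0 AP-2 matches and 1 Krüppel-like match, and the Krt7 window 2 of each. A stretch just after the RefSeq start was found in a GENCODE M21 transcript of each of these genes except Jup. A match is a string of letters and not a measured binding site. Krt8 and Krt18 are neighbours on chromosome 15, with 23697 bases and 0 annotated genes between them. In GENCODE M21 Krt8 lies at 101996698 to 102004482 and Krt18 at 102028180 to 102032027. These bounds reach into the RefSeq windows of Krt8 and Krt18, so part of each window lies inside the gene as GENCODE M21 gives it.

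Genes that reached 1 linear unit in 2 or more libraries entered a limma fit on the log2 values, with Benjamini-Hochberg adjustment over all tested genes and an adjusted p under 0.05 as the threshold, and all adjusted p-values below are of this kind. Of the 9 genes, 4 passed this filter: Krt8, Krt18, Dsp and Jup. Knockdown libraries stand in tables of their own, apart from Ctrl, so the knockdown differences cross tables that may have been scaled apart. RNA was taken from whole embryos, so fewer cells with a transcript and less of it per cell cannot be told apart.

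Krt8 was measured at 1.66 and 1.41 log2 units in siKlf5, at 2.74 and 2.88 in siTfap2c, at 3.97 and 3.76 in Arpc1bE_CdxE1_KO and at 3.77 and 3.06 in CdxE2_KO, against 3.19 and 2.76 in Ctrl. In linear units these were 2.17 and 1.66 in siKlf5, against 8.12 and 5.77 in Ctrl. By mean, Arpc1bE_CdxE1_KO stood highest, followed by CdxE2_KO, Ctrl, siTfap2c and siKlf5, and the libraries of each neighbouring pair overlapped except siTfap2c and siKlf5.

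**Figure D1:**
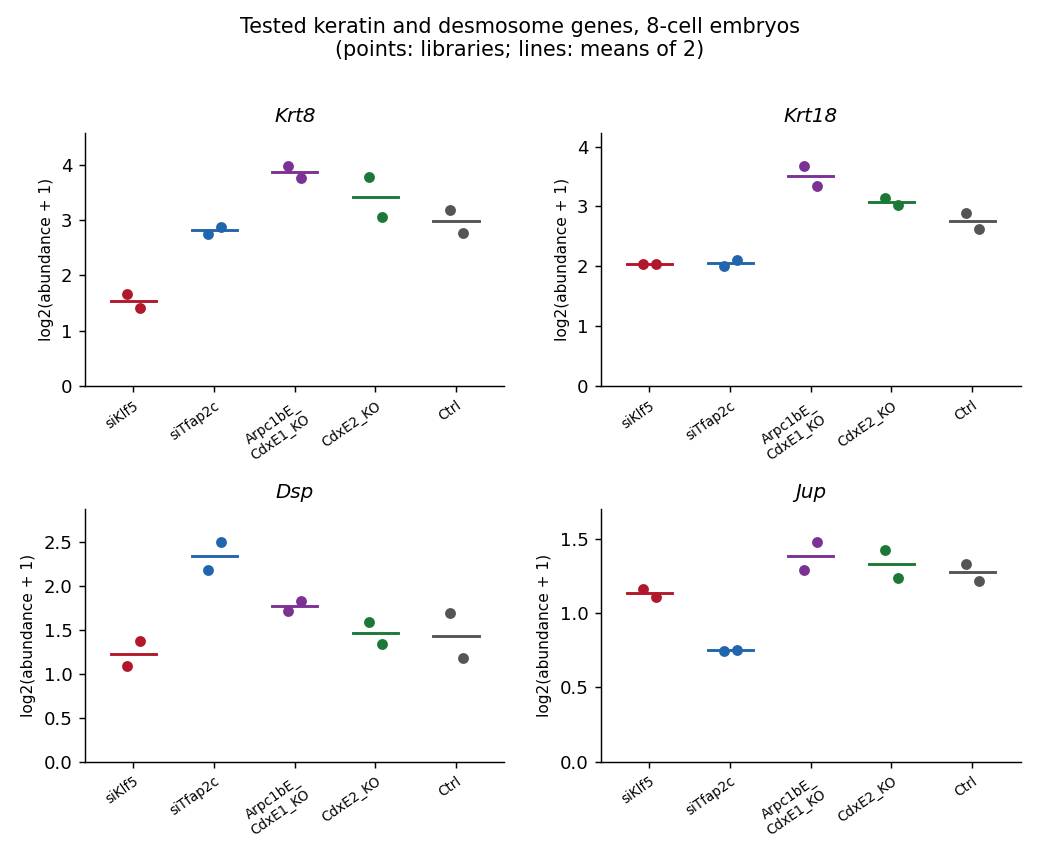
Values of Krt8, Krt18, Dsp and Jup in log2(abundance + 1) on the vertical axes, with a point for each library and a line at the mean of the 2 libraries of a group. Krt8 is lowest in siKlf5 (1.66 and 1.41), Krt18 lies near 2.05 in both knockdowns, and in siTfap2c Dsp is highest (2.18 and 2.50) and Jup lowest (0.75 and 0.75).

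Relative to Ctrl, Krt8 fell in siKlf5, with a log2 difference of -1.44 (SE 0.23, 95% confidence interval -1.95 to -0.92, adjusted p = 0.0074). This is a ratio of 0.369 for abundances with 1 added, at means of 1.91 linear units in siKlf5 and 6.94 in Ctrl. Krt18 also fell in siKlf5: it stood at 2.05 and 2.04 log2 units there, against 2.89 and 2.62 in Ctrl, a log2 difference of -0.71 (SE 0.15, interval -1.04 to -0.38, adjusted p = 0.021). Dsp and Jup did not pass the threshold in siKlf5. Dsp stood at 1.08 and 1.37 log2 units in siKlf5, against 1.68 and 1.17 in Ctrl (log2 difference -0.20, interval -0.67 to 0.26), so the libraries overlapped. Jup stood at 1.16 and 1.11 in siKlf5, against 1.33 and 1.21 in Ctrl (log2 difference -0.14, interval -0.48 to 0.20), lower in both libraries but within the interval. Of the 4 tested genes 2 were thus lower and 0 higher in siKlf5, where 5.27% of all 11195 tested genes were called lower and 2.25% higher (29.9% of the called genes higher as deposited and 46.2% with libraries centred on their medians). The median log2 difference of the 4 was -0.46, against -0.02 for all tested genes. The Krt8 call was lost without Ctrl replicate 1 (adjusted p = 0.066) and without siKlf5 replicate 2 (0.065). The Krt18 call was lost with low genes kept in the fit (0.055), without Ctrl replicate 1 (0.15), without siKlf5 replicate 1 (0.092) and without siKlf5 replicate 2 (0.11).

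In the Tfap2c knockdown Krt18 fell as well, whereas Krt8 did not pass the threshold, Dsp rose and Jup fell. Krt18 stood at 2.0 and 2.11 log2 units in siTfap2c, below both Ctrl libraries (2.89 and 2.62), a log2 difference of -0.69 (SE 0.15, interval -1.02 to -0.37, adjusted p = 0.0075). Krt8 differed from Ctrl by -0.16 (interval -0.68 to 0.36, adjusted p = 0.67), and its libraries lay within the range of the Ctrl libraries or just below it. Dsp stood at 2.18 and 2.50 log2 units in siTfap2c, against 1.68 and 1.17 in Ctrl, with both siTfap2c libraries above both controls (log2 difference 0.91, SE 0.21, interval 0.45 to 1.38, adjusted p = 0.011). In linear units Dsp was 3.54 and 4.64 in siTfap2c, against 2.21 and 1.25 in Ctrl. Jup stood at 0.75 and 0.75 log2 units in siTfap2c, against 1.33 and 1.21 in Ctrl (log2 difference -0.52, SE 0.15, interval -0.86 to -0.18, adjusted p = 0.032). In linear units Jup was 0.678 and 0.679 in siTfap2c, against 1.51 and 1.32 in Ctrl. The siTfap2c values lie below the 1 unit of the filter, which Jup passed through the other groups. So 2 of 4 tested genes were lower and 1 higher in siTfap2c, where 11.9% of 11195 genes were called lower and 12.6% higher. The median over the 4 was -0.34, against 0.04 for all tested genes.

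Calls in siTfap2c rested on few libraries. Krt18 lost its call without Ctrl replicate 1 (adjusted p = 0.067) and without siTfap2c replicate 1 (0.058), and Dsp without Ctrl replicate 2 (0.084) and without siTfap2c replicate 2 (0.088). Jup lost its call with low genes kept in the fit (0.060) and without any 1 of the 4 libraries: the adjusted p was 0.16 without Ctrl replicate 1, 0.083 without Ctrl replicate 2, 0.13 without siTfap2c replicate 1 and 0.12 without siTfap2c replicate 2. With an added constant of 0.1 in place of 1 the Jup difference was -0.96.

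Marker levels moved with the knockdowns too. The 10 markers of the 8-cell embryo summed to 618 to 619 linear units in siKlf5 and 493 to 515 in siTfap2c, against 777 to 787 in Ctrl. They include Cdx2 and the knocked-down Klf5 and Tfap2c, so part of each fall was set by the knockdown itself. Klf5 averaged 18.3 linear units in siKlf5 and 40.8 in siTfap2c, against 142 in Ctrl. Tfap2c averaged 15.2 in siTfap2c, against 96.7 in Ctrl. Called lower were 5 of the 10 in siKlf5 (5.27% of all tested genes) and 9 of the 10 in siTfap2c (11.9%). In each knockdown 1 of the 10 was called higher. The 15 cumulus and granulosa markers summed to 3.48 to 3.87 in siKlf5 and 4.29 to 4.87 in siTfap2c, against 3.55 to 4.10 in Ctrl, so that siKlf5 overlapped Ctrl and siTfap2c lay above it. Oocyte markers summed to 70.2 to 74.2 in siKlf5, above Ctrl, and to 61.3 to 69.6 in siTfap2c, across Ctrl at 63.9 to 67.1. The part of these shifts in the keratin and desmosome values was not tested.

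**Figure D2:**
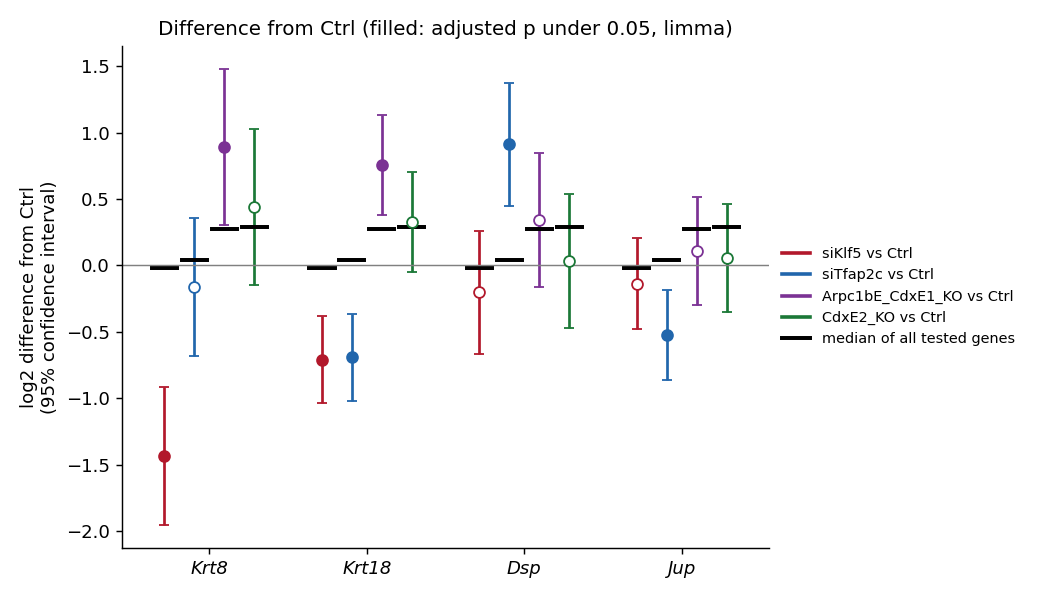
Log2 difference from Ctrl (vertical axis) of Krt8, Krt18, Dsp and Jup in each of the 4 other groups, with 95% confidence intervals from limma. Filled points have an adjusted p under 0.05, and short black bars give the median difference of all tested genes, which was 0.27 in Arpc1bE_CdxE1_KO and 0.29 in CdxE2_KO. Krt8 lies furthest below its bar in siKlf5 (-1.44) and Dsp furthest above in siTfap2c (0.91).

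The knockdowns were also compared with each other, which tests whether Krt8 and Dsp differed between them. The difference itself holds no Ctrl values, while the Ctrl libraries enter the shared estimate of spread. Each knockdown stands in a table of its own, so this difference also crosses tables that may have been scaled apart. Krt8 was higher in siTfap2c than in siKlf5, at 2.74 and 2.88 log2 units in siTfap2c against 1.66 and 1.41 in siKlf5 (log2 difference 1.27, SE 0.23, interval 0.76 to 1.79, adjusted p = 0.0035). Dsp was higher too, at 2.18 and 2.50 in siTfap2c against 1.08 and 1.37 in siKlf5 (log2 difference 1.12, SE 0.21, interval 0.65 to 1.58, adjusted p = 0.0040). Both calls held without each of the 4 libraries in turn, with adjusted p-values of at most 0.031 for Krt8 and 0.040 for Dsp. No difference in Krt18 was detected (log2 difference 0.02, interval -0.31 to 0.34, adjusted p = 0.95). For Jup the difference was -0.39 (interval -0.73 to -0.05, adjusted p = 0.092), with both siTfap2c libraries below both siKlf5 libraries. Hence 2 of 4 tested genes were called higher and 0 lower in siTfap2c, where 15.1% of 11195 genes were called higher and 10.5% lower. After centring of libraries on their medians 46.5% of the genes called between the knockdowns were higher in siTfap2c, and 59.1% as deposited.

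Set against each other within a library, the 2 keratins of the usual pair were shifted from Ctrl in opposite directions in the 2 knockdowns. The Krt8 value minus the Krt18 value was -0.38 and -0.63 log2 units in siKlf5 and 0.74 and 0.77 in siTfap2c, against 0.30 and 0.14 in Ctrl. Both siKlf5 libraries lay below, and both siTfap2c libraries above, the 2 controls. It was 0.30 and 0.42 in Arpc1bE_CdxE1_KO and 0.64 and 0.03 in CdxE2_KO, where the libraries reached to or across those of Ctrl. A single value of 2 libraries against 2 cannot reach an exact two-sided permutation p below 0.333, so these values are a description. The difference is taken within a library and so is little touched by its scaling, while its absolute size depends on gene length and on the added constant.

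**Figure D3:**
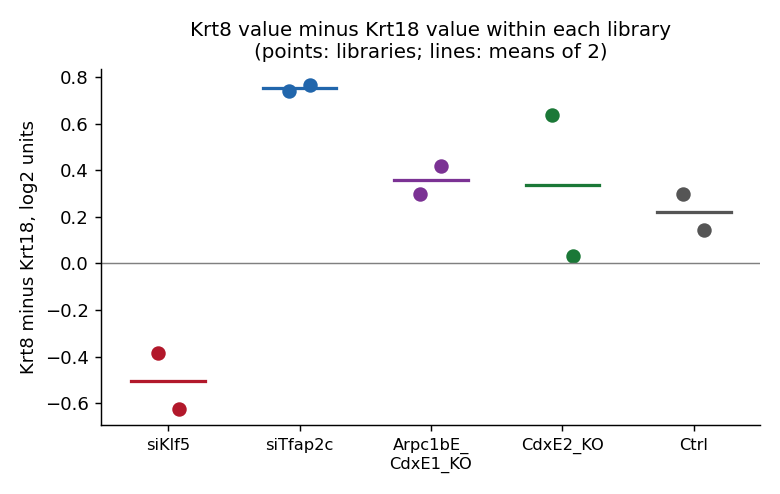
Krt8 value minus Krt18 value within each library, in log2 units on the vertical axis, with a point for each library and a line at the mean of 2. The siKlf5 libraries (-0.38 and -0.63) lie below 0 and the siTfap2c libraries (0.74 and 0.77) above all Ctrl and Arpc1bE_CdxE1_KO libraries.

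In the motif knockouts the keratins were called higher in Arpc1bE_CdxE1_KO as deposited, but not once the general shift of these libraries was removed. Krt8 stood at 3.97 and 3.76 log2 units in Arpc1bE_CdxE1_KO, against 3.19 and 2.76 in Ctrl (log2 difference 0.89, SE 0.25, interval 0.30 to 1.48, adjusted p = 0.041). Krt18 stood at 3.67 and 3.34, against 2.89 and 2.62 in Ctrl (log2 difference 0.76, SE 0.16, interval 0.38 to 1.13, adjusted p = 0.020). All tested genes had a median difference of 0.27 in Arpc1bE_CdxE1_KO and of 0.29 in CdxE2_KO relative to Ctrl. Of the genes called in these comparisons 96.6% and 95.2% were higher as deposited, and 55.5% and 42.3% after centring of each library on its median. With libraries centred, Krt8 differed by 0.57 (adjusted p = 0.23) and Krt18 by 0.44 (0.16), and with libraries scaled to the same sum by 0.60 (0.21) and 0.47 (0.14). So 2 of 4 tested genes were called higher and 0 lower in Arpc1bE_CdxE1_KO as deposited, where 23.2% of 10920 genes were called higher and 0.815% lower, and 0 of 4 after either rescaling. The median difference of the 4 genes was 0.55. As deposited, the Krt8 call was lost without any 1 of the 4 libraries (adjusted p = 0.13 and 0.064 without Arpc1bE_CdxE1_KO replicates 1 and 2, 0.087 and 0.20 without Ctrl replicates 1 and 2). The Krt18 call was lost without Arpc1bE_CdxE1_KO replicate 1 (0.061) and without either Ctrl replicate (0.066 and 0.12). With low genes kept in the fit the adjusted p was 0.12 for Krt8 and 0.061 for Krt18.

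In CdxE2_KO 0 of the 4 tested genes passed the threshold, where limma called 28.5% of 10920 genes higher and 1.44% lower. At an unadjusted p under 0.05 there were also 0 of the 4, against 44.4% of all tested genes. Krt8 stood at 3.77 and 3.06 log2 units in CdxE2_KO, overlapping Ctrl at 3.19 and 2.76 (log2 difference 0.44, interval -0.15 to 1.03). Krt18 stood at 3.13 and 3.03, above both Ctrl libraries (2.89 and 2.62), with a log2 difference of 0.33 (interval -0.05 to 0.71) close to the median of all genes. Neither of the plaque genes Dsp and Jup was called in either motif knockout. Dsp stood at 1.72 and 1.82 in Arpc1bE_CdxE1_KO and 1.59 and 1.34 in CdxE2_KO, against 1.68 and 1.17 in Ctrl. Jup stood at 1.29 and 1.48 in Arpc1bE_CdxE1_KO and 1.42 and 1.23 in CdxE2_KO, against 1.33 and 1.21 in Ctrl. Only Dsp in Arpc1bE_CdxE1_KO lay above both Ctrl libraries, by little. Between the motif knockouts, CdxE2_KO against Arpc1bE_CdxE1_KO, 0 of 4 were called, where limma called 0.0366% of 10920 genes higher and 0.00916% lower. An unadjusted p under 0.05 was reached by 1 of the 4, Krt18 (log2 difference -0.43, adjusted p = 0.40), and by 11.3% of all tested genes. Summed levels of 11 oocyte markers were higher in the motif knockouts as deposited. They were 85.8 to 118 linear units in Arpc1bE_CdxE1_KO and 98.9 to 107 in CdxE2_KO, against 63.9 to 67.1 in Ctrl. None of the 11 was listed at 0 throughout. The sum of the 15 cumulus and granulosa markers was 4.20 to 4.82 in Arpc1bE_CdxE1_KO and 4.51 to 5.30 in CdxE2_KO, against 3.55 to 4.10 in Ctrl. These marker sums were not rescaled for library totals. The totals were also higher in the motif knockouts, at 478651 to 498621 linear units against 389715 and 390386 in Ctrl. The part of these differences in the keratin values was not tested.

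The other 5 genes stayed below 1 linear unit in every library and were not tested. Jup too was below 1 linear unit in both siTfap2c libraries. Values this low can be failed estimates, since 26.0% to 34.5% of all values of a library are exactly 0 and Gapdh is listed at 0 to 0.81 log2 units. Krt7 stood at 0.15 and 0.15 log2 units in siKlf5, 0.12 and 0.24 in siTfap2c, 0.26 and 0.15 in Arpc1bE_CdxE1_KO and 0.20 and 0.10 in CdxE2_KO, against 0.38 and 0.31 in Ctrl. Both Ctrl libraries were above the other 8, though Ctrl itself held only 0.305 and 0.242 linear units. Krt19 was listed at 0 in 6 libraries and at up to 0.05 log2 units in the other 4, 2 of them siKlf5 libraries.

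Among the desmosomal cadherins, Dsg2 stood at 0 and 0.04 log2 units in CdxE2_KO, 0.17 and 0.34 in siKlf5, 0.10 and 0.28 in siTfap2c and 0.28 and 0.28 in Arpc1bE_CdxE1_KO, against 0.28 and 0.30 in Ctrl. CdxE2_KO was the low group for this gene. With no filter on low values its log2 difference from Ctrl in CdxE2_KO was -0.27 (adjusted p = 0.036 among 20769 genes), at 0 and 0.0263 linear units in CdxE2_KO against 0.211 and 0.234 in Ctrl. Dsc2 was listed between 0 and 0.30 log2 units and at 0 in 2 libraries, 1 each of siTfap2c and CdxE2_KO, and its highest value was that of the other CdxE2_KO library. Pkp2 stood at 0.61 and 0.88 in siKlf5, 0.34 and 0.41 in siTfap2c, 0.52 and 0.67 in Arpc1bE_CdxE1_KO and 0.37 and 0.70 in CdxE2_KO, against 0.66 and 0.60 in Ctrl. Its siTfap2c libraries were below both controls and both siKlf5 libraries. Without the filter, the difference in Pkp2 between siTfap2c and Ctrl was -0.25 (adjusted p = 0.36) and between siTfap2c and siKlf5 -0.37 (adjusted p = 0.18).

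**Figure D4:**
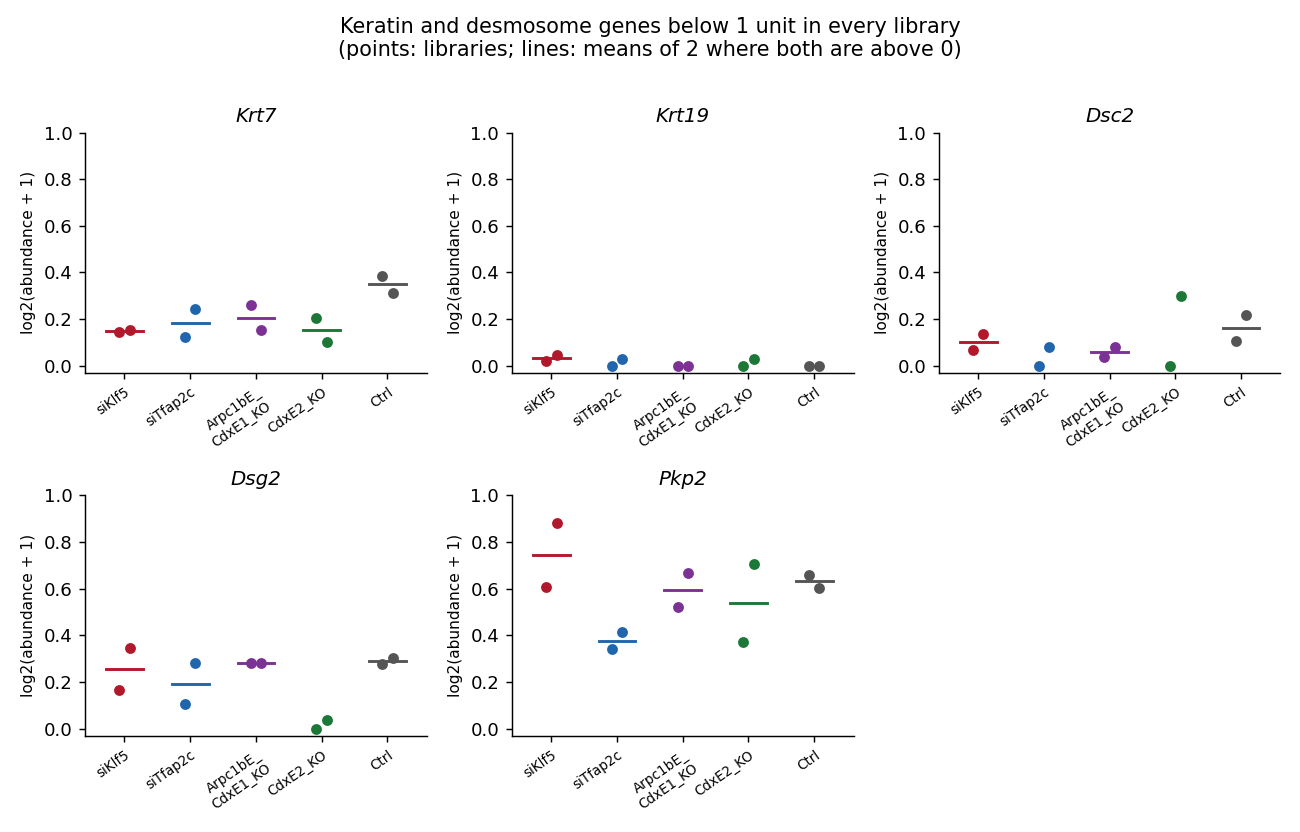
Values of Krt7, Krt19, Dsc2, Dsg2 and Pkp2 in log2(abundance + 1) on the vertical axes, all on the same scale, with a point for each library and a line at the mean of 2 where both are above 0. Krt7 is highest in Ctrl (0.38 and 0.31), Krt19 lies at 0 to 0.05 throughout, and Dsg2 is lowest in CdxE2_KO (0 and 0.04).

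Genes that work beside these 9 were taken from further lists. Of 34 other keratins, those of stratified epithelia and hair among them, 7 were listed at 0 in all 10 libraries, 32 never reached 1 linear unit, and 2 could be tested. Krt222 reached 1 linear unit only in siTfap2c and CdxE2_KO, so it passed the filter through the groups where it was high. Krt222 rose in siTfap2c, at 1.5 and 1.54 log2 units against 0.32 and 0.65 in Ctrl (log2 difference 1.04, adjusted p = 0.0056), a call lost without Ctrl replicate 1 (0.051), and with an added constant of 0.1 the difference was 2.04. It was also called higher in CdxE2_KO (0.79, adjusted p = 0.037) and Krt84 in Arpc1bE_CdxE1_KO (0.83, adjusted p = 0.044), but both calls were lost with libraries centred (0.25 for each), with low genes kept in the fit (0.075 for Krt222 and 0.13 for Krt84) and without either Ctrl replicate (0.084 to 0.19). The Krt222 call in CdxE2_KO was also lost with a replicate block (0.052) and with a constant of 0.1 (0.052), and the Krt84 difference was 0.47 without Arpc1bE_CdxE1_KO replicate 1 (0.12).

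Plectin (Plec), the linker between keratin filaments, actin and the membrane, fell in both knockdowns. It stood at 4.39 and 4.17 log2 units in siKlf5, against 5.35 and 5.45 in Ctrl (log2 difference -1.12, adjusted p = 0.00079), and at 3.83 and 3.98 in siTfap2c (-1.49, adjusted p = 1.5e-05), and both calls held under every alternative. Integrin beta 4 (Itgb4), which plectin binds in hemidesmosomes, fell in siKlf5, at 2.70 and 2.52 against 3.29 and 3.47 in Ctrl (-0.77, adjusted p = 0.0097), a call lost without siKlf5 replicate 2 or Ctrl replicate 2 (highest adjusted p 0.078). Itgb4 stood at 3.73 and 3.51 in siTfap2c, above siKlf5 by 1.01 (adjusted p = 0.00062), and this call held under every alternative. Of the 9 cytolinker and hemidesmosome genes 7 were tested: 2 fell and 0 rose in siKlf5, 1 fell and 0 rose in siTfap2c, 0 changed in Arpc1bE_CdxE1_KO, and 3 rose in CdxE2_KO as deposited (Plec, Dst and Tchp) and 0 with libraries centred. Of all tested genes 5.27% were called lower in siKlf5, 11.9% lower in siTfap2c, 23.2% higher in Arpc1bE_CdxE1_KO and 28.5% higher in CdxE2_KO. The median differences of the 7 were -0.23, 0.00, 0.22 and 0.33 in that order, the last 2 near the shift of all genes.

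Perp, a membrane protein of desmosomes and a p53 target, fell in both knockdowns as well. It stood at 1.5 and 1.07 log2 units in siTfap2c, against 3.20 and 3.16 in Ctrl (log2 difference -1.89, adjusted p = 0.00019), and at 2.27 and 2.05 in siKlf5 (-1.02, adjusted p = 0.019). That siKlf5 call was lost without any 1 of the 4 libraries or with all genes kept (highest adjusted p 0.12), whereas the siTfap2c call held under every alternative. Pkp4, an armadillo protein of cell junctions, was higher than Ctrl in both knockdowns, at 5.09 and 5.09 in siKlf5 and 5.04 and 5.03 in siTfap2c, against 4.67 and 4.55 in Ctrl (0.48, adjusted p = 0.018, and 0.42, adjusted p = 0.0099). The first of these calls was lost without any 1 of its 4 libraries (highest adjusted p 0.12) and the second without 3 of 4 (highest 0.075), Ctrl replicate 1 being the exception. Of the 13 other desmosome genes 3 were tested in the knockdowns, and in each 1 rose and 1 fell. Of all tested genes 2.25% were called higher and 5.27% lower in siKlf5, and 12.6% higher and 11.9% lower in siTfap2c. As deposited, 23.2% were called higher in Arpc1bE_CdxE1_KO and 28.5% in CdxE2_KO. In Arpc1bE_CdxE1_KO 2 of 2 rose as deposited (Perp 0.91, Pkp4 0.55) and in CdxE2_KO 1 of 2 (Pkp4, 0.51), and 0 with libraries centred in either; all 3 calls were also lost without either Ctrl replicate (adjusted p = 0.069 to 0.11). The desmosomal cadherins Dsg1a, Dsg1b, Dsg1c, Dsg3, Dsg4, Dsc1 and Dsc3 stayed below 1 linear unit in every library.

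**Figure D5:**
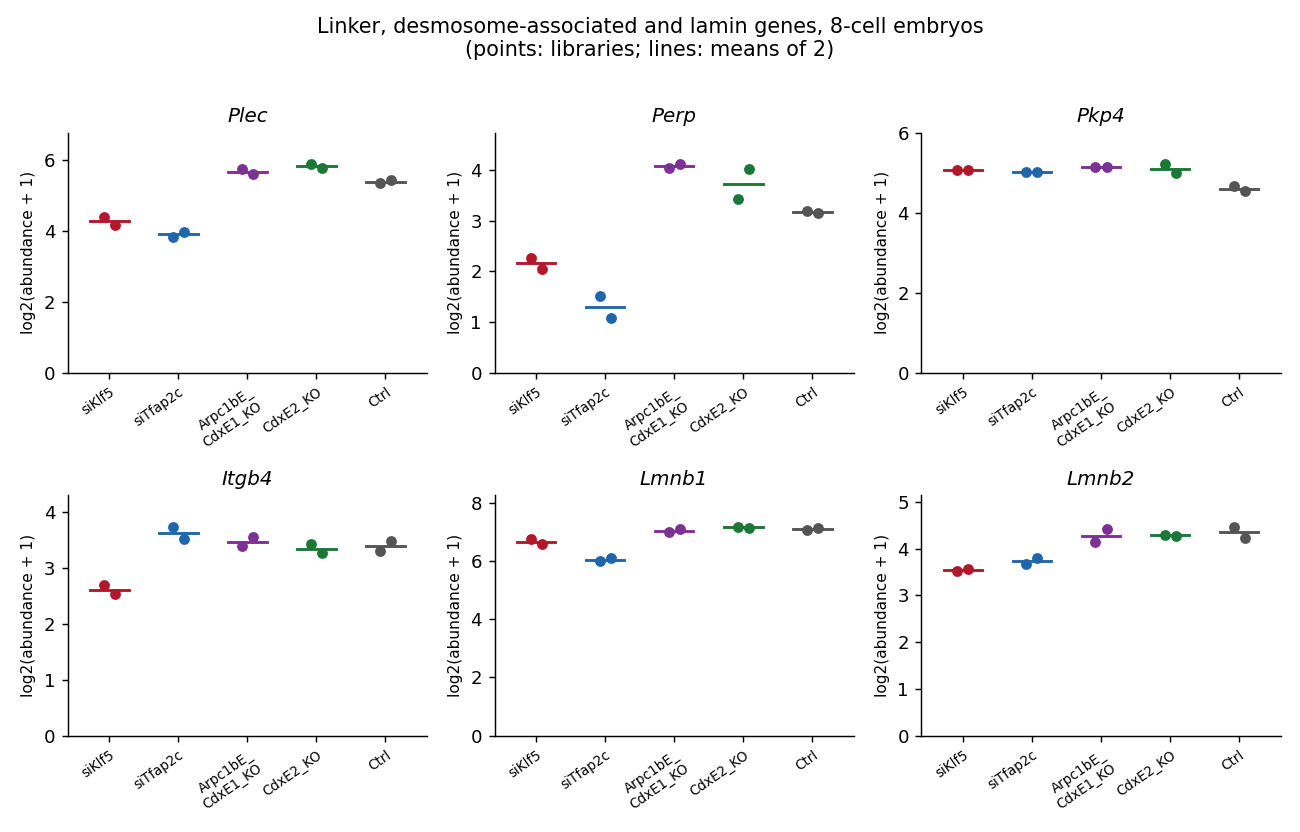
Values of Plec, Perp, Pkp4, Itgb4, Lmnb1 and Lmnb2 in log2(abundance + 1) on the vertical axes, with a point for each library and a line at the mean of 2. Plec and Perp are lower in siKlf5 and siTfap2c than in Ctrl, and Itgb4 is low in siKlf5 (2.70 and 2.52).

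The nuclear lamins, intermediate filament proteins of the nuclear envelope, included 2 genes that fell in both knockdowns. Lmnb1 stood at 6.02 and 6.11 log2 units in siTfap2c, against 7.07 and 7.15 in Ctrl (log2 difference -1.05, adjusted p = 2.6e-05), and at 6.76 and 6.59 in siKlf5 (-0.43, adjusted p = 0.015). Lmnb2 differed by -0.62 in siTfap2c (adjusted p = 0.0049) and by -0.81 in siKlf5 (adjusted p = 0.0053). The siTfap2c calls held under every alternative. In siKlf5 the Lmnb2 call was lost without Ctrl replicate 1 (0.053), and the Lmnb1 call without either Ctrl replicate or siKlf5 replicate 2 (highest adjusted p 0.11). Of 15 other intermediate filament genes 10 were tested: 2 fell and 0 rose in siKlf5, and 2 fell and 1 rose in siTfap2c, the lens filament gene Bfsp2 (log2 difference 1.07, adjusted p = 0.011, and 2.85 with an added constant of 0.1), whose call was lost without Ctrl replicate 2 and without siTfap2c replicate 1 (highest adjusted p 0.090). In Arpc1bE_CdxE1_KO 3 of the 10 rose (Nes, Nefh and Bfsp2) and in CdxE2_KO these and Lmna, where 23.2% and 28.5% of 10920 genes were called higher. With libraries centred 0 of the 10 were called in Arpc1bE_CdxE1_KO and 1, Nes, in CdxE2_KO, where 321 and 681 of all genes were. In the motif knockout fit Nes and Bfsp2 passed the filter through knockout libraries alone. In the knockdown fit Bfsp2 passed only through siTfap2c and motif knockout libraries, the groups where it was high. Its Ctrl libraries held 0.354 and 0 linear units, so the size of its difference depends on the added constant. Of 11195 genes, 5.27% were called lower and 2.25% higher in siKlf5, and 11.9% lower and 12.6% higher in siTfap2c. Lmnb1 was also lower in siTfap2c than in siKlf5, by a log2 difference of -0.61 (adjusted p = 0.00065). Besides Itgb4 and Lmnb1, genes of these further lists called between the knockdowns were Itga6 (adjusted p = 0.026) and Krt222 (0.0040), higher in siTfap2c. Plec (0.028), Perp (0.012) and Nefh (0.047) were lower there. The calls of Itga6, Plec, Perp and Nefh between the knockdowns were each lost without siKlf5 replicate 1 and without siTfap2c replicate 2. Nefh kept its call in 3 of 10 alternatives.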

How the data were processed

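Reads had been handled with StringTie 1.3.4, HISAT2 2.1.0, Cufflinks and SAMtools 1.7 on mm10, per the submitters' processing notes. Their roles and the strand setting are not given in the sources used here. Per the labels' protocols a stranded total RNA kit with random primers was used. The deposited tables hold log2 values per gene and library, made by the authors. Values of exactly 0 fit an added constant of 1, and the scale understates changes of low genes. The depth of the libraries is unknown, since the tables hold no read counts.

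Knockdown comparisons were fitted on all 10 libraries (11195 genes) and motif knockout comparisons on the 6 libraries of their own table (10920 genes) in R 4.3.3 with limma 3.58.1, its variance prior following mean level. The fits were tested on simulated data. Alternatives were a constant of 0.1, no filter and a filter of 5 linear units, median centring, equal sums without Rn45s, a replicate block, the 4 compared libraries alone, and leaving out each library. The 9 genes and the lists were chosen with earlier results of these data known. Text names the 9 genes, the targets, called members of the keratin, desmosome, cytolinker and filament lists, and genes of most alike pattern. The neighbouring transcript Gm36026 overlaps 271 bases of Krt8 on the other strand, and the pseudogene Krt8-ps lies on chromosome 7; neither is a row of the tables, so reads shared with them cannot be told apart. Parp10 overlaps 1401 bases of Plec.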

Additional observations from a re-analysis of the deposited data

How the results depend on the processing

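Of 252 values for the 4 tested genes over the alternatives, 207 kept their direction and side of the threshold, 28 kept their direction and lost the call, and 17 that were called in neither fit changed sign; 0 called values did. Sign changes touched Dsp (-0.30 to 0.29) and Jup (-0.28 to 0.15) in CdxE2_KO most often, and also Krt18 there, Jup in Arpc1bE_CdxE1_KO and between the motif knockouts, Dsp in siKlf5, Krt8 in siTfap2c and Krt18 between the knockdowns. Counts of calls depended on each library. Without 1 library, genes called numbered 211 to 317 in siKlf5 (842 with all), 1535 to 1773 in siTfap2c (2749), 161 to 2864 in Arpc1bE_CdxE1_KO (2621), 514 to 1099 in CdxE2_KO (3270), 1587 to 1785 between the knockdowns (2865) and 4 to 200 between the motif knockouts (5). Of the 9 genes, those called then numbered 0 to 2 in siKlf5, 1 to 1 in siTfap2c, 0 to 1 in Arpc1bE_CdxE1_KO, and 0, 2 and 0 in the last 3 comparisons. Without the filter on low values 507, 1166, 1858 and 0 genes were called in siKlf5, Arpc1bE_CdxE1_KO, CdxE2_KO and between the motif knockouts, and of the 9 genes 1, 0, 1 and 0; the gene in CdxE2_KO is Dsg2. With libraries centred on their medians 321 genes were called in Arpc1bE_CdxE1_KO and 681 in CdxE2_KO, and scaled to the same sum 293 and 693, with 0 of the 9 in both. Of the siKlf5 calls 29.9% were higher as deposited and 46.2% with libraries centred. With the filter at 5 linear units Dsp and Jup were not tested, which left 1 called in siTfap2c and 1 between the knockdowns. The 4 libraries of the comparison alone gave 2 calls between the motif knockouts. The cause of the other moves was not tested. Libraries of equal replicate number showed no shared deviation: their deviations from the group means correlated at -0.05 to 0.04 over 10 pairs of groups. The labels do not say whether equal numbers mark libraries handled together, and these correlations cannot exclude it. With the replicate block 706, 2615, 2483, 3087, 2735 and 4 genes were called in the order above, and the calls of the 9 genes did not change; among list genes Krt222 (0.052) and Lmna (0.055) in CdxE2_KO and Nefh between the knockdowns (0.065) lost theirs. With 2 libraries a group, and a lone library assumed to vary like the other groups, a miss does not show that values were equal.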

Other observations

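Nestin (Nes), an intermediate filament protein of neural progenitors, stood at 2.06 and 1.87 log2 units in CdxE2_KO, against 0.80 and 0.89 in Ctrl, with a log2 difference of 1.12 by limma (adjusted p = 0.0060). Ctrl held 0.745 and 0.847 linear units, so Nes passed the filter of this fit through knockout libraries alone. The call held under all 10 alternatives in which Nes was tested, the centring of libraries included (highest adjusted p 0.047), and with an added constant of 0.1 the difference was 1.75. In Arpc1bE_CdxE1_KO, Nes stood at 1.66 and 1.75 (log2 difference 0.86, adjusted p = 0.015), a call lost with libraries centred (0.12) and without either Ctrl replicate (0.084 and 0.081). Nefh, a neurofilament subunit, stood at 2.15 and 2.23 in CdxE2_KO and 2.15 and 2.11 in Arpc1bE_CdxE1_KO, against 1.14 and 1.32 in Ctrl, and both calls were lost with libraries centred (0.054 and 0.088) and without Ctrl replicate 1 (0.053 and 0.071).

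None of the 9 genes had a mean of 10 linear units over the 10 libraries, the minimum set for naming genes of like pattern. With a minimum of 3, chosen after the values were seen, the gene closest to Krt8 among 7372 was Erbb2, with a root mean square difference of 0.27 log2 units over 10 libraries after each gene was centred on its own mean, followed by Serpinb6a (0.28) and Ttc39b (0.28). For Krt18 these were Hist1h2bp (0.15), Zfp791 (0.15) and Ap4s1 (0.17). Krt8 itself varied by 0.81 and Krt18 by 0.58 on the same measure around their own means.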
